A study of Mus musculus with 20 samples.

Results

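The 10 genes described here were taken as markers of the sinusoidal endothelium of the liver: Stab1, Stab2, Lyve1, Clec4g, Oit3, Pecam1, Kdr, Cdh5, Bmp2 and Gata4. They were chosen by name, with earlier results of these data known, and each was found as a single row among the 55421 genes of the count table, so 10 of 10 could be followed in all 20 libraries. Liver sinusoidal endothelial cells line the capillaries of the liver lobule. They differ from other endothelium in having open pores without a diaphragm and no organised basement membrane, and in clearing waste molecules from the blood through scavenger receptors. They also signal to the surrounding cells, for instance through BMP ligands that set iron handling in hepatocytes, and the transcription factor GATA4 is known to hold their sinusoidal identity against a switch to ordinary capillary endothelium. Stab1, Stab2, Lyve1, Clec4g and Oit3 are largely particular to this endothelium within the liver, whereas Pecam1, Kdr and Cdh5 are carried by endothelial cells of all vessels.

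The libraries were poly(A) RNA-seq of whole liver from 20 mice, 5 in each of 4 groups. All mice were wildtype by their label and labelled female, and all were injected at an age of 6 months with an AAV8 vector for saCAS9 (the Cas9 nuclease of Staphylococcus aureus) driven by the Tbg promoter, together with a guide RNA under the U6 promoter. The guide targeted Hira, which encodes a chaperone that deposits histone H3.3, or the Rosa26 locus, a neutral site that served as the control. Livers were taken 3 weeks or 6 months after injection. The study's text says male for this time course, whereas a figure legend, like the label, says female. The Tbg promoter is active in hepatocytes, so endothelial cells were not the cells in which the nuclease was meant to act, and the control mice carried the same nuclease and vector. In bulk tissue, fewer endothelial cells and less RNA per endothelial cell cannot be told apart. Nor can the cell type that a transcript came from be read, for Gata4 or any other gene.

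The libraries held 19916430 to 24079736 counts, and the 10 most abundant genes took 17.4% to 25.1% of them. Hira itself was 0.48 lower on the log2 scale in HIRA livers at 3 weeks (SE 0.14, adjusted p = 0.197) and differed by -0.10 (SE 0.14, adjusted p = 0.794) at 6 months. These values are from edgeR's quasi-likelihood test with Benjamini-Hochberg adjustment over 22867 genes, the test behind every adjusted p below unless another is named. The study reported loss of HIRA protein by western blot with these guides, which RNA levels do not measure. Replicate 5 of the HIRA 6-month group stood apart from its label, with 9 counts of Xist against 6286 to 8436 in the other 19 libraries and 2041 counts of Y-chromosome genes against 0 to 13. By these genes the other 19 libraries read as female, as labelled, and this one as male, so only that group mixes the sexes. The 6-month guide differences of the 10 genes and the list medians printed for that comparison are therefore given with and without this library. The defining markers of the endothelium were present throughout, since none of the 10 genes was at 0 in any library and each passed the minimum of 10 counts in total.

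Promoter sequence was at hand for 4 of the 10 genes, from RefSeq on GRCm38.p6, and is shown because these genes varied together across livers. The genes are Stab1 (the clearance receptor stabilin-1), Stab2 (stabilin-2, the main hyaluronan receptor of the sinusoid), Clec4g (a C-type lectin) and Kdr (the main receptor for VEGF-A). Each stretch is the 250 bases before the transcription start, 5′ to 3′ on the minus strand, at chr14:31168642-31168891 for Stab1, chr10:87007943-87008192 for Stab2, chr8:3720652-3720901 for Clec4g and chr5:75978456-75978705 for Kdr. Capitals mark matches on either strand to the GATA words AGATAA and AGATAG and TGATAA and TGATAG, the kind of site bound by GATA factors such as GATA4, or to the ETS words AGGAAG and CGGAAG, the kind of site bound by endothelial ETS factors such as ERG and FLI1.
Stab1: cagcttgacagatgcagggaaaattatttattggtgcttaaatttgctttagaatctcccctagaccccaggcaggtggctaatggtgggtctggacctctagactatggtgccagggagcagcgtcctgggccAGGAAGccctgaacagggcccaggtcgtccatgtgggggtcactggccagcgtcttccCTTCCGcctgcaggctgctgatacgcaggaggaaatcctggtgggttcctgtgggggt
Stab2: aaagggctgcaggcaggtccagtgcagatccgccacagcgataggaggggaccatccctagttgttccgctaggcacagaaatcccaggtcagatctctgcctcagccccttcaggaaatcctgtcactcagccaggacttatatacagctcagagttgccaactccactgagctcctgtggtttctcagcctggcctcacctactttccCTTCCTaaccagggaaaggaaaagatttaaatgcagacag
Clec4g: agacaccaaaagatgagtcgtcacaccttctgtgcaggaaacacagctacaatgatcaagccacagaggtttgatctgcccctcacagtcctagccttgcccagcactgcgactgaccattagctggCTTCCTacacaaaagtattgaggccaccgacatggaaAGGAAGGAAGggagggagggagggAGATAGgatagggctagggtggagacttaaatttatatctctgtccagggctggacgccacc
Kdr: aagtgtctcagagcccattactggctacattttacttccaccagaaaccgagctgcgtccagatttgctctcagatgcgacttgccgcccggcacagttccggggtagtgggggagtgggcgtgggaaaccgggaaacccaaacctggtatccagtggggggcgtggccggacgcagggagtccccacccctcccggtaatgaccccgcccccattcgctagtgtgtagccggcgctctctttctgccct

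The Stab1 window held 2 ETS words and no GATA word, the Stab2 window 1 ETS word and no GATA word, and the Kdr window neither. The Clec4g window held 3 ETS words, of which 2 overlap each other, and 1 GATA word that begins 62 bases before the start. Over all 32851 RefSeq promoters of the same length, 39.2% held an ETS word and 26.5% a GATA word, so such matches are common and serve only as a description of the letters. The Stab2 start of RefSeq lies 83 bases inside the gene's start in GENCODE M21, while the starts of Stab1 and Clec4g are the same in both. Promoter windows of Lyve1, Oit3, Pecam1, Cdh5, Bmp2 and Gata4 were not analysed here.

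On GRCm38 the genes lie apart on 7 chromosomes. Stab1 spans chr14:31139013-31168641 with 58 exon blocks, Stab2 chr10:86841198-87008025 with 72, Lyve1 chr7:110850607-110863239 with 6, Clec4g chr8:3707064-3720651 with 11 and Oit3 chr10:59422958-59441778 with 9, all on the minus strand. Pecam1 spans chr11:106654217-106750628 with 17 exon blocks, Kdr chr5:75932827-75978458 with 29 and Gata4 chr14:63198922-63271692 with 10, again on the minus strand, whereas Cdh5 at chr8:104101625-104144511 with 13 and Bmp2 at chr2:133552159-133562885 with 3 are on the plus strand. The exons of Stab1 share 112 bases with Nt5dc2 on the opposite strand, a gene whose counts came to 7.91% of those of Stab1. Exons of Stab2 and Clec4g share bases with an antisense gene each, whose counts came to 0.513% and 0.543% of the member's own. Whether the counting used strand is not given in the sources used here, so reads in those shared bases cannot be assigned with certainty.

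Per kilobase of exon, Clec4g had the highest level of the 10 genes, with a median of 22.8 CPM per kilobase (CPM are counts scaled by the TMM library size) over the 20 libraries. Oit3 followed at 9.37 CPM per kilobase, Cdh5 at 6.69, Stab2 at 5.96 and Stab1 at 5.80. Gata4 was at 4.99, Kdr at 4.84, Bmp2 at 4.51, Pecam1 at 2.97 and Lyve1 at 2.55. Clec4g lay above Oit3 and Bmp2 above Pecam1 in 20 of 20 libraries, and Oit3 above Cdh5 in 18. Stab2 lay above Stab1 in 8 of 20, Gata4 above Kdr in 12 and Pecam1 above Lyve1 in 11, so these neighbours had no steady order. By the deposited FPKM values the order had Clec4g first, with a median of 40.4, and Lyve1 last, with 2.34, as well, but Stab1 second, with 17.2.

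Across livers the genes spanned a narrow range. The highest of the 20 libraries was 1.71 times the lowest for Gata4, 2.13 times for Stab1, 2.22 times for Clec4g, 2.27 times for Stab2, 2.33 times for Pecam1 and 2.36 times for Kdr. The ratio was 2.61 for Bmp2, 2.65 for Oit3, 3.71 for Cdh5 and 4.03 for Lyve1. In 7 of the 10 genes the lowest library was the same, replicate 4 of the Rosa26 6-month group, and in 5 the highest was replicate 4 of the Rosa26 3-week group.

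**Figure D1:**
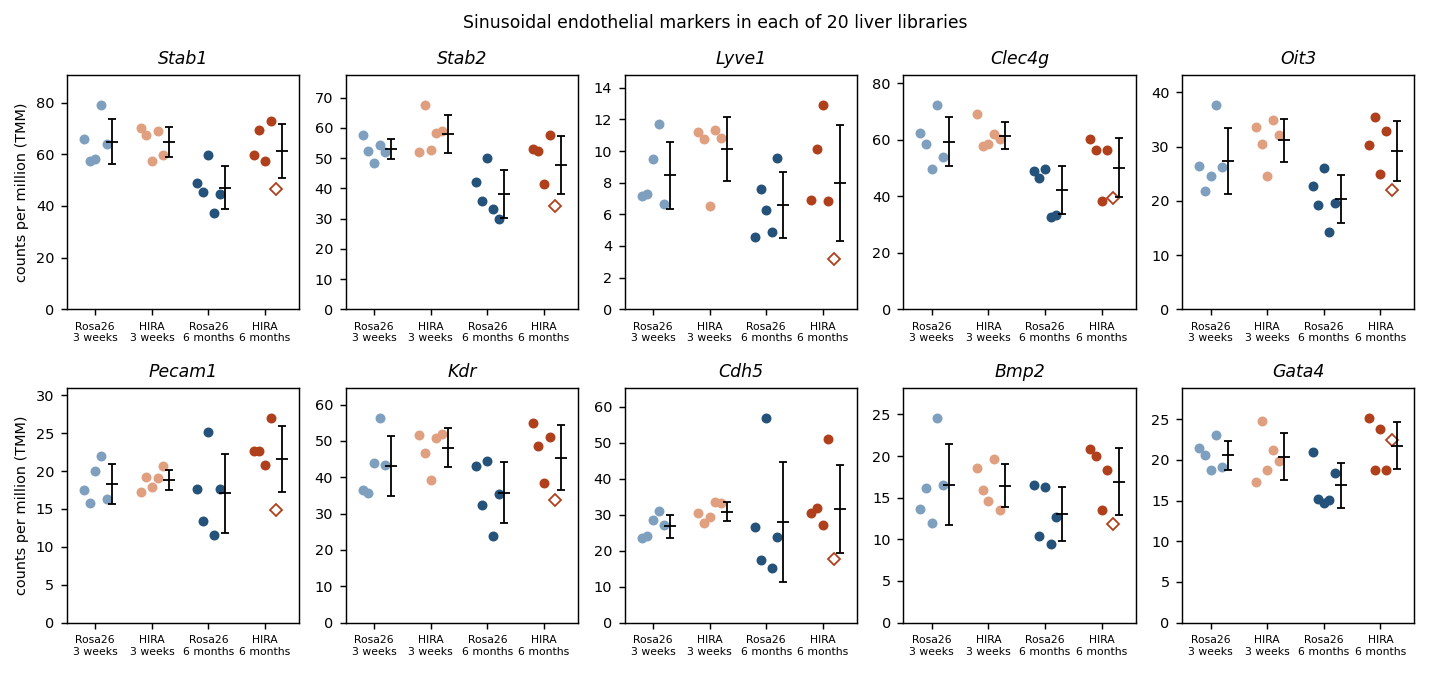
CPM (TMM-scaled, vertical axis from 0) of each of the 10 genes in each library, in 4 groups of 5, with replicates 1 to 5 from left to right; the black bar is the group's mean with its SD. The open diamond is replicate 5 of the HIRA 6-month group. The Rosa26 6-month group has the lowest mean for every gene but Cdh5. The guides at each time, and the times within each guide, overlap for all 10 genes.

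The comparison of guides asks whether the endothelial genes change when Hira is targeted in hepatocytes. At 6 months all 10 genes had a higher fitted level in HIRA than in Rosa26 livers, by 0.18 to 0.52 on the log2 scale (fold 1.13 to 1.43), with a median of 0.34 against 0.03 over all genes tested. No gene passed the adjusted threshold in the fit of 20 libraries. An unadjusted p under 0.05 was reached by 5 genes (Oit3, Gata4, Stab1, Stab2 and Kdr), beside 8.68% of all genes with that p and a higher level. With single libraries left out this count ran from 3 (without Rosa26 replicate 2, 4 or 5, or HIRA replicate 1, 2 or 4) to 8 (without Rosa26 replicate 3 or HIRA replicate 5), while the share of all genes ran from 6.87% to 9.94%. At 3 weeks the differences ran from -0.01 to 0.26 with a median of 0.09, 7 of 10 above 0 (10 of 10 with upper-quartile in place of TMM scaling), and none had an unadjusted p under 0.05, against 4.37% of all genes in that direction.

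The scavenger receptors come first. Stab1 was measured at 48.9, 45.4, 59.6, 37.1 and 44.7 CPM in Rosa26 replicates 1 to 5 at 6 months, and at 59.7, 69.4, 57.5, 73.0 and 46.5 CPM in HIRA replicates 1 to 5. In the HIRA group replicate 5 lay lowest and inside the control range, while 3 of the other 4 lay above every control. The difference was 0.38 on the log2 scale (SE 0.13, 95% interval 0.12 to 0.64, adjusted p = 0.142). At 3 weeks Stab1 was at 65.8, 57.3, 58.4, 79.1 and 64.2 CPM in Rosa26 livers and at 70.1, 67.3, 57.4, 69.1 and 59.9 CPM in HIRA livers. These groups lay over each other, with a difference of -0.00 (SE 0.13, interval -0.26 to 0.26, adjusted p = 0.997).

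Stab2, the receptor that takes up hyaluronan, stood at 42.2, 35.9, 50.0, 33.0 and 29.7 CPM in the Rosa26 livers at 6 months and at 52.9, 52.4, 41.4, 57.8 and 34.1 CPM in the HIRA livers. Of the HIRA livers, 3 lay above all controls and 2 within their range, and the difference was 0.32 (SE 0.14, interval 0.04 to 0.61, adjusted p = 0.25). At 3 weeks it was 0.13 (SE 0.14, adjusted p = 0.879). Lyve1, a hyaluronan receptor of sinusoidal and lymphatic endothelium, was the gene of lowest level and widest spread, at 3.20 to 12.9 CPM in HIRA livers and 4.57 to 9.59 CPM in controls at 6 months. Its differences of 0.28 (interval -0.29 to 0.86) at 6 months and 0.26 (interval -0.31 to 0.83) at 3 weeks had intervals that span 0. With single libraries left out the 6-month difference of Lyve1 ranged from 0.04 (without HIRA replicate 3) to 0.48 (without HIRA replicate 5), and the 3-week one from 0.18 to 0.41 (without Rosa26 replicate 4).

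Oit3, a secreted protein of sinusoidal endothelium, showed the largest fitted difference of the 10 genes at 6 months. It was at 22.7, 19.2, 26.0, 14.2 and 19.6 CPM in Rosa26 replicates 1 to 5 and at 30.4, 35.5, 24.9, 32.9 and 22.1 CPM in HIRA replicates 1 to 5. In 3 HIRA livers Oit3 lay above every control, with replicates 3 and 5 inside the control range. The difference was 0.52 (fold 1.43, SE 0.16, interval 0.18 to 0.85, adjusted p = 0.112, edgeR). At 3 weeks Oit3 was at 26.4, 21.9, 24.6, 37.6 and 26.2 CPM in controls and at 33.7, 30.6, 24.6, 34.9 and 32.0 CPM in HIRA livers. Replicate 4 was the highest of the controls and above every HIRA liver, and the difference was 0.19 (SE 0.16, adjusted p = 0.831), or 0.33 without that control and 0.12 without control replicate 2.

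Clec4g, the lectin of highest level per kilobase, ranged from 32.6 to 49.7 CPM in controls and from 38.2 to 60.3 CPM in HIRA livers at 6 months. The difference was 0.25 (SE 0.14, interval -0.05 to 0.55, adjusted p = 0.434), and at 3 weeks it was 0.05 (SE 0.14, adjusted p = 0.97). Without HIRA replicate 1 the 6-month difference of Clec4g was 0.16.

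Among the genes of all endothelium, Kdr, the VEGF receptor, had a difference of 0.34 (SE 0.16, interval 0.01 to 0.68, adjusted p = 0.31) at 6 months and of 0.16 (SE 0.16, adjusted p = 0.869) at 3 weeks. Without Rosa26 replicate 4 the values of Kdr were 0.23 at 6 months and 0.27 at 3 weeks. Pecam1, an adhesion molecule of endothelial contacts and platelets, differed by 0.34 (SE 0.17, adjusted p = 0.336) at 6 months and by 0.04 (SE 0.17, adjusted p = 0.981) at 3 weeks, and its 6-month difference was 0.52 without Rosa26 replicate 3. Cdh5 (VE-cadherin, the adherens junction protein of endothelium) was at 26.5, 17.2, 56.7, 15.3 and 23.8 CPM in the 6-month controls and at 30.4, 31.7, 27.0, 50.9 and 17.7 CPM in the HIRA livers. Replicate 3 of the controls and replicate 4 of the HIRA group stood well above the rest of their groups, with 1318 and 1041 raw counts. The difference was 0.18 (SE 0.27, adjusted p = 0.823), and it became -0.06 without that HIRA replicate 4 and 0.61 without that control replicate 3.

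Bmp2, a ligand made by sinusoidal endothelium that acts on hepatocyte iron regulation, was at 9.40 to 16.5 CPM in controls and 11.9 to 20.8 CPM in HIRA livers at 6 months, a difference of 0.38 (SE 0.20, interval -0.03 to 0.79, adjusted p = 0.371). At 3 weeks its difference was -0.01 (SE 0.20, adjusted p = 0.997). Gata4, the transcription factor, was at 21.0, 15.2, 14.7, 15.1 and 18.4 CPM in the 6-month controls and at 25.1, 18.8, 23.9, 18.7 and 22.4 CPM in the HIRA livers. Gata4 lay above all controls in 3 HIRA livers, and the lowest HIRA liver lay above 4 of the 5 controls. The difference was 0.37 (SE 0.12, interval 0.13 to 0.61, adjusted p = 0.121, edgeR), against -0.01 (SE 0.12, adjusted p = 0.997) at 3 weeks. Gata4 was the only one of the 10 genes in which replicate 5 of the HIRA 6-month group was not among the 2 lowest of its group.

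**Figure D2:**
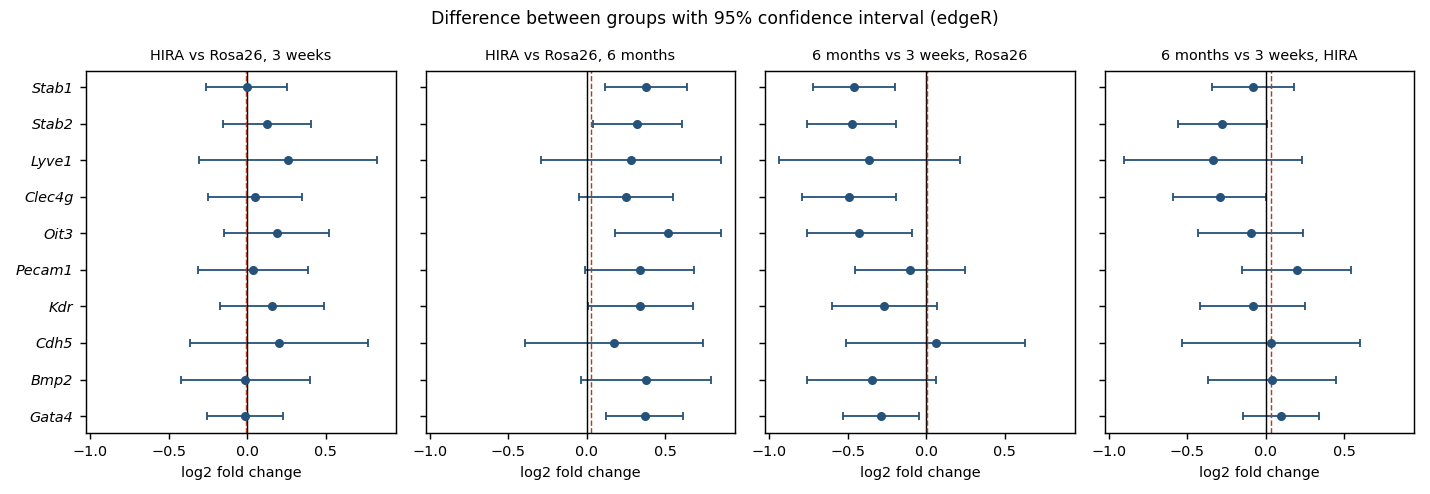
Log2 fold change (horizontal axis) of each gene in 4 comparisons, as points with 95% confidence intervals from edgeR; the solid line is 0 and the dashed line the median of all genes tested. All 10 points lie to the right of 0 for the guide at 6 months, and 9 of 10 lie to the left for time in the Rosa26 livers.

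Under the rule of adjusted p under 0.05 with a log2 change above 1, 0 of 10 genes were called at 3 weeks, where 0.114% of all genes were, and 0 of 10 at 6 months, where 0.332% were. With the adjusted p alone it was again 0 of 10 at both times, against 0.197% and 1.31% of all genes. No gene of the 10 had HIRA livers entirely above the controls at 6 months, a pattern found in 1.41% of all genes. DESeq2 on the same counts also called 0 of 10 at either time, where it called 0.997% of all genes at 3 weeks and 3.91% at 6 months by adjusted p alone. By DESeq2 4 of the 10 were higher at an unadjusted p under 0.05 at 6 months, beside 7.1% of all genes. Limma-voom called 0 of 10 as well, against 0.101% of all genes at 3 weeks and 1.3% at 6 months, with 6 of 10 higher at an unadjusted p under 0.05 at 6 months, beside 7.92% of all genes.

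Averaged over both times, 10 of 10 genes were higher in HIRA livers, by 0.15 to 0.35, with a median of 0.19 against 0.02 over all genes. Oit3 had the largest value, 0.35 (SE 0.11, adjusted p = 0.104). Lyve1 was next at 0.27 (SE 0.19, adjusted p = 0.522), or 0.15 to 0.37 with single libraries left out. None was called with the fold threshold, against 0.468% of all genes, or by adjusted p alone, against 2.85%. With an unadjusted p under 0.05, 5 genes were higher (Oit3, Stab2, Kdr, Gata4 and Stab1), beside 8.62% of all genes, a count that ran from 1 (without HIRA 3-week replicate 2, Rosa26 6-month replicate 4 or HIRA 6-month replicate 1) to 6 with single libraries left out, against shares of 7.5% to 9.72% of all genes. DESeq2 called 0 of 10, against 5.58% of all genes by adjusted p alone, with 4 higher at an unadjusted p under 0.05, beside 7.56% of all genes.

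Without replicate 5 of the HIRA 6-month group, the library that stood apart from its label, the 6-month differences were larger for 9 of the 10 genes, with a median of 0.44, and 8 of 10 had an unadjusted p under 0.05, beside 9.94% of all genes with that p and a higher level. Oit3 then differed by 0.60 (SE 0.16, adjusted p = 0.0575), Stab1 by 0.46 (SE 0.12, adjusted p = 0.0523) and Stab2 by 0.42 (SE 0.13, adjusted p = 0.0845), none of them past the threshold that 1.74% of all genes passed. The other 7 differences were then 0.48 for Lyve1, 0.32 for Clec4g, 0.44 for Pecam1, 0.43 for Kdr, 0.33 for Cdh5, 0.48 for Bmp2 and 0.36 for Gata4. DESeq2 without that library called Stab1 and Oit3 at 6 months, at adjusted p of 0.0217 and 0.0226, in a fit that called 5.07% of all genes. The averaged effect of Oit3, at 0.39, then passed by edgeR as well (adjusted p = 0.0485), as did 3.92% of all genes. Without replicate 4 of the Rosa26 6-month group, the liver with the lowest levels, the 6-month count at an unadjusted p under 0.05 was 3 of 10, beside 6.87% of all genes. Oit3 then differed by 0.41 (adjusted p = 0.284).

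The guide effect at 6 months minus that at 3 weeks was above 0 for 9 of 10 genes, with a median of 0.25 against 0.03 over all genes. Gata4 changed by 0.38 (SE 0.17, adjusted p = 0.728) and Stab1 by 0.38 (SE 0.18, adjusted p = 0.746), the only 2 with an unadjusted p under 0.05, beside 3.67% of all genes in that direction. None of the 10 passed the adjusted threshold, by either rule (0% of all genes under each), and DESeq2 called none, with 1 at an unadjusted p under 0.05, beside 2.68% of all genes. Without replicate 5 of the HIRA 6-month group the change was above 0 for 10 of 10 genes with a median of 0.33, the lowest adjusted p was 0.541, and 2 had an unadjusted p under 0.05, beside 4.17% of all genes. With single libraries left out this count ran from 0 (without Rosa26 3-week replicate 4, HIRA 3-week replicate 3, Rosa26 6-month replicate 2 or 4, or HIRA 6-month replicate 1) to 2, beside 3.06% to 4.42% of all genes. It was 0 with either FPKM setting, and over the alternatives other than single libraries the share of all genes was 2.68% to 3.92%. The guide effects at the 2 times were therefore not shown to differ for any of the genes.

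The second axis of the design is time, 6 months against 3 weeks after injection, which is also the difference in the age of the mice. In Rosa26 controls 9 of 10 genes were lower at 6 months, with a median of -0.36 against 0.00 over all genes. Clec4g differed by -0.49 (SE 0.14, adjusted p = 0.132), Stab2 by -0.47 (SE 0.14, adjusted p = 0.127), Stab1 by -0.46 (SE 0.13, adjusted p = 0.107), Oit3 by -0.43 (SE 0.16, adjusted p = 0.25) and Gata4 by -0.29 (SE 0.12, adjusted p = 0.294). These 5 had an unadjusted p under 0.05, beside 6.38% of all genes that were lower. Of the genes carried by all endothelium, Pecam1 was at -0.10 (SE 0.17), Kdr at -0.27 (SE 0.16) and Cdh5 at 0.06 (SE 0.27). With single libraries left out Pecam1 ranged from -0.285 to 0.00847, Kdr from -0.36 to -0.15 and Cdh5 from -0.37 to 0.21.

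For Stab2 the 3-week controls were at 57.8, 52.5, 48.4, 54.5 and 52.0 CPM, and a single 6-month control, replicate 3 at 50.0 CPM, reached into that range. For Clec4g the 3-week controls were at 62.3, 58.4, 49.6, 72.2 and 54.0 CPM and the 6-month controls at 49.0, 46.3, 49.7, 32.6 and 33.2 CPM, so the groups met only at 49.6 and 49.7 CPM. No gene of the 10 had 6-month controls entirely below the 3-week controls, a pattern seen in 1.81% of all genes. None was called by edgeR, against 0.162% of all genes with the fold threshold and 0.324% by adjusted p alone. DESeq2 called Stab1 by adjusted p alone (-0.45, adjusted p = 0.0418), against 2.23% of all genes, with 5 of 10 lower at an unadjusted p under 0.05, beside 5.44% of all genes. Without replicate 4 of the Rosa26 6-month group, Stab1 differed by -0.39 (adjusted p = 0.265), and 3 of 10 genes were lower at an unadjusted p under 0.05, as they also were without replicate 4 of the Rosa26 3-week group, beside 5.52% and 5.44% of all genes. This comparison shares the 6-month controls with the guide effect at 6 months, with opposite sign, so the values of both rest in part on the same 5 livers.

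In the HIRA arm the time differences ran from -0.34 (Lyve1) to 0.20 (Pecam1), with a median of -0.08 against 0.03 over all genes and 6 of 10 below 0. Clec4g differed by -0.30 (SE 0.14, adjusted p = 0.563), Stab2 by -0.28 (SE 0.14, adjusted p = 0.565), Stab1 by -0.08 (SE 0.13, adjusted p = 0.904) and Oit3 by -0.10 (SE 0.16, adjusted p = 0.912). With single libraries left out Lyve1 ranged from -0.57 to -0.14 and Oit3 from -0.18 to -0.01. By edgeR none of the 10 was called, against 0.0569% of all genes with the fold threshold and 0.0656% without it, and none was lower at an unadjusted p under 0.05, against 3.36% of all genes. DESeq2 called none either, against 0.617% of all genes, with 0 lower at an unadjusted p under 0.05, beside 3.37%. That count was 2 by limma-voom, with the replicate block and without a filter on low counts. It ran from 0 to 2 with single libraries left out (2 without HIRA 6-month replicate 1, 2 or 4), beside 2.9% to 3.95% of all genes. Over the other alternatives the share of all genes was 2.52% to 4.27%. Without replicate 5 of the 6-month group the median was 0.00, with 4 of 10 below 0.

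For time in the Rosa26 controls, 8 of 11 other sinusoidal markers were lower with a median of -0.24, and 18 of 20 markers of all endothelium with a median of -0.18. The list of central endothelium was lower in 6 of 6 genes with a median of -0.44, whereas the portal list was higher in 5 of 6 with a median of 0.24 and the list of continuous vessels in 4 of 9 with a median of -0.06. Hepatocyte markers had a median of -0.21, stellate markers of -0.13 and Kupffer cell markers of 0.36. Lymphocyte markers had the largest median of the lists, 0.81 with 7 of 8 higher, and platelet and erythroid markers were at 0.46 with 5 of 6 higher. The summed Kupffer markers ran against that median, with group medians of 523 CPM at 3 weeks and 342 CPM at 6 months, where 1 control stood at 2040 CPM. By edgeR no gene of these lists passed the adjusted threshold in this comparison. DESeq2 called Efnb2 of the portal list higher (0.71, adjusted p = 0.044), and Apoa1 of the hepatocyte list (-0.52, adjusted p = 0.0342) and the Kupffer cell receptors Timd4 (-1.20, adjusted p = 0.0256) and Marco (-2.56, adjusted p = 0.0384) lower. The part of the other cell types in it was not tested.

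A mean over the 10 genes of the centred log2 CPM was used to describe single livers. It ranged from -0.69 in replicate 4 of the Rosa26 6-month group to 0.39 in replicate 4 of the Rosa26 3-week group. The Rosa26 6-month group averaged -0.28 ± 0.29 (SD, n = 5), with 4 of 5 livers below 0, whereas HIRA livers averaged 0.17 ± 0.12 at 3 weeks and 0.05 ± 0.29 at 6 months, and Rosa26 livers 0.06 ± 0.19 at 3 weeks. Replicate 5 of the HIRA 6-month group, at -0.42, was the second lowest of all 20, and the other 4 of its group lay between 0.00 and 0.27. In the lowest liver, and in replicate 2 of the same group, all 10 genes were below their own mean, and in replicate 4 of the 3-week controls all 10 were above it.

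**Figure D3:**
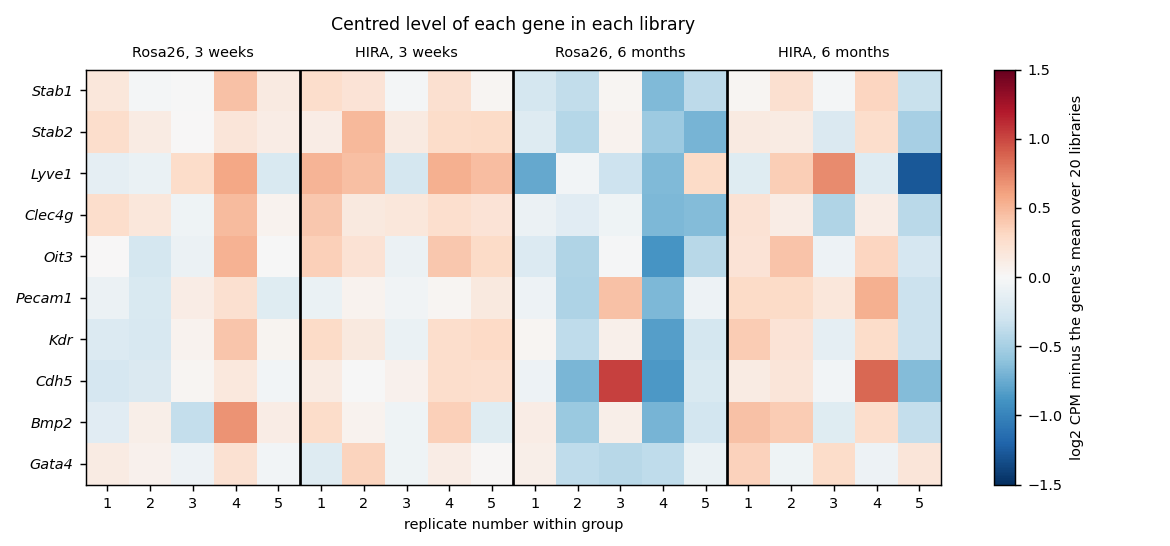
Log2 CPM of each gene (rows) in each library (columns, replicates 1 to 5 within 4 groups) minus the gene's mean over 20 libraries, red above and blue below. Replicate 4 of the Rosa26 6-month group is blue in all 10 rows, and Cdh5 is high in replicate 3 of that group and replicate 4 of the HIRA 6-month group.

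Most of the genes varied together from liver to liver. Of the 45 pairs, 44 had a positive Spearman correlation over the 20 libraries, with a median of 0.57, and within groups the median Pearson correlation was 0.63. Stab1 and Oit3 were the pair most alike, at 0.96, and Cdh5 and Gata4 the least, at -0.01. Gata4 was the member least like the others, with a median of 0.27 over its 9 pairs against 0.68 over the 36 pairs without it. Within groups the Pearson correlations of Gata4 with the other members ran only from -0.19 (Cdh5) to 0.20 (Bmp2). These are descriptions over 20 livers in 4 groups that share the libraries' depth and cell makeup.

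Levels were also read relative to the mean log2 CPM of Pecam1, Kdr and Cdh5 in the same library, which sets a gene beside markers of all endothelium. On that relative log2 scale the guide difference at 6 months was 0.05 for Stab1, -0.00 for Stab2, -0.14 for Lyve1, -0.08 for Clec4g, 0.20 for Oit3, 0.05 for Bmp2 and 0.04 for Gata4. Without replicate 5 of the HIRA 6-month group it ran from -0.14 (Clec4g) to 0.15 (Oit3), with Lyve1 at 0.01 and Gata4 at -0.11. The time difference in controls was below 0 for all 7, at -0.29 for Stab1, -0.32 for Stab2, -0.20 for Lyve1, -0.33 for Clec4g, -0.25 for Oit3, -0.16 for Bmp2 and -0.12 for Gata4. In the HIRA arm the relative time difference was -0.10 for Stab1, -0.31 for Stab2, -0.46 for Lyve1, -0.33 for Clec4g, -0.12 for Oit3, 0.01 for Bmp2 and 0.08 for Gata4. Without that replicate 5 it ran from -0.39 (Clec4g) to -0.01 (Bmp2). These are differences of group means with no test. The 2 libraries with high Cdh5 enter each of the 3-gene means at 6 months.

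Of 11839 other genes with a mean of at least 1 CPM, those most like the 10-gene mean over the 20 libraries included several with known endothelial roles. Flt4 (VEGF receptor 3) had a Spearman correlation of 0.98 (Pearson 0.94), Mylip 0.92 (0.92), Gpr182 (an atypical chemokine receptor of sinusoids) 0.92 (0.94), and Eng (endoglin, a BMP and TGF-β co-receptor) 0.88 (0.89). Add3, Dnase1l3, Nova2, Adm, Fcgr2b and Robo4 followed, at 0.87 to 0.88. Flt4, Gpr182, Dnase1l3, Fcgr2b, Eng and Robo4 were also on the marker lists for endothelium used next. These 10 were picked for likeness over the same libraries, so their guide differences at 6 months, from 0.13 for Add3 to 0.64 for Nova2, are a description.

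Other genes of the endothelium also had positive medians at 6 months, smaller than that of the 10 genes. Of 11 other sinusoidal markers, 10 were higher in HIRA livers at 6 months, with a median of 0.19, 2 at an unadjusted p under 0.05 (Flt4 at 0.40, adjusted p = 0.179, and Dnase1l3, a secreted nuclease, 0.39, adjusted p = 0.31) and none past the adjusted threshold. Of 20 markers of all endothelium, 18 were higher, with a median of 0.24, 4 at an unadjusted p under 0.05, among them Eng (0.45, adjusted p = 0.0787) and Nos3 (endothelial nitric oxide synthase, 0.45, adjusted p = 0.128), and none past the adjusted threshold by edgeR. DESeq2 called Eng, higher by 0.43 (adjusted p = 0.0273), as did edgeR without replicate 5 of the HIRA 6-month group (0.53, adjusted p = 0.0272). Markers of continuous vessels, the type that lacks pores, were higher in 9 of 9 genes with a median of 0.25. The lists of central and portal endothelium had medians of 0.14 and 0.05. Without that replicate 5 the 5 medians were 0.30 for the other sinusoidal markers, 0.33 for the markers of all endothelium, 0.30 for continuous vessels, 0.25 for central and 0.16 for portal endothelium. The sinusoidal and the continuous-vessel lists thus both had positive medians, and by edgeR on 20 libraries no gene of these 5 lists passed the adjusted threshold in either guide comparison, while DESeq2 called 1, Eng at 6 months. At 3 weeks the medians were 0.15 for the other sinusoidal markers, 0.11 for the markers of all endothelium and -0.02 for continuous vessels, with central endothelium at -0.17 (4 of 6 lower) and portal endothelium at 0.04.

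Among 13 genes of VEGF and angiopoietin signalling, 10 were higher and 3 lower in HIRA livers at 6 months, with a median of 0.24 (0.28 without replicate 5 of the HIRA group). Flt1, Flt4, Tek and Tie1 of this list were also on the endothelial lists above, so the lists are not independent. Nrp2 (neuropilin-2, a co-receptor for VEGF-C and semaphorins) fell. It was at 45.1, 47.4, 40.5, 49.3 and 32.5 CPM in the 6-month controls and at 29.1, 29.6, 19.3, 31.2 and 30.5 CPM in HIRA livers, with no overlap, a difference of -0.62 (SE 0.13, adjusted p = 0.0263). At 3 weeks the groups were also apart, with HIRA livers at 22.6 to 30.1 CPM and controls at 31.0 to 44.5 CPM, a difference of -0.49 (SE 0.13, adjusted p = 0.159). The share of all genes with HIRA livers entirely below the controls was not counted at either time. The averaged effect of Nrp2 was -0.56 (SE 0.09, adjusted p = 0.00314). Without replicate 5 of the HIRA 6-month group the 6-month difference was -0.65 (adjusted p = 0.0243). With only the 10 libraries of 6 months fitted, no gene of 20832 passed the adjusted threshold, so the 6-month call of Nrp2 rests on the fit of all 20 libraries. Vegfd, a ligand of VEGF receptor 3, differed by 0.57 (adjusted p = 0.25). In a list of 13 BMP pathway genes, 10 were higher and 3 lower at 6 months with a median of 0.08 (9 higher, median 0.12, without replicate 5 of the HIRA group), and 6 were higher and 7 lower at 3 weeks with a median of -0.03. Id1, a direct target of BMP signalling, differed by 0.77 (adjusted p = 0.393) at 3 weeks and by 0.67 (adjusted p = 0.262) at 6 months. Hamp (hepcidin, the iron hormone of hepatocytes that BMP signalling raises) differed by -0.41 and -0.20, Hjv, a BMP co-receptor, by -0.24 and -0.22, and Hamp2 by 0.36 and -0.80, at 3 weeks and 6 months. None of the list passed the adjusted threshold by edgeR in either comparison, nor by DESeq2. For the averaged effect DESeq2 called Id1 (0.72, adjusted p = 0.014) and Id3 (0.42, adjusted p = 0.0308) higher and Hjv (-0.23, adjusted p = 0.0304) lower, and edgeR none. The 7 other GATA factors and their cofactors had a median of 0.01 at 6 months (0.10 without replicate 5 of the HIRA group) and none at an unadjusted p under 0.05.

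**Figure D4:**
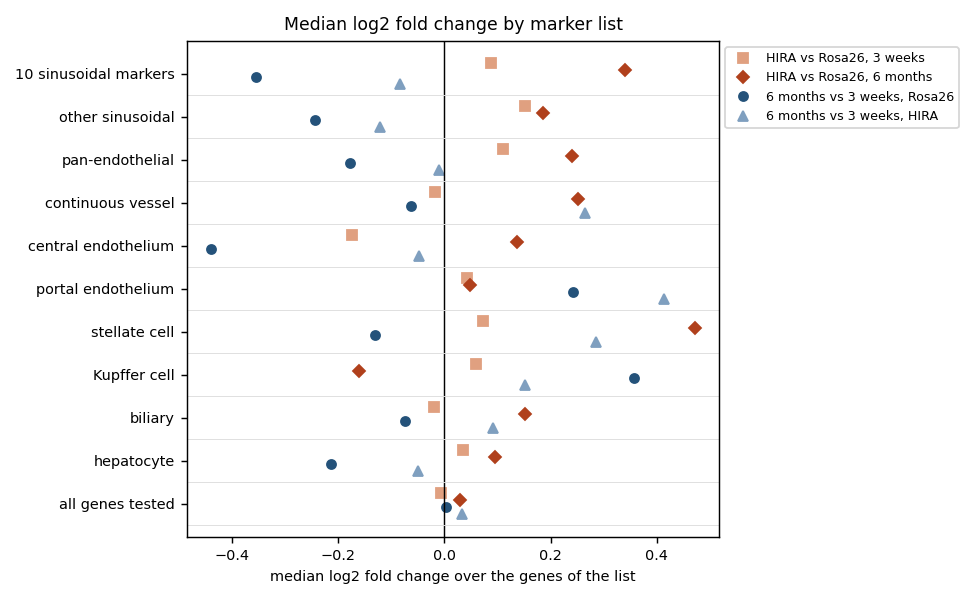
Median log2 fold change (horizontal axis) over the genes of each marker list in 4 comparisons, with all genes tested in the bottom row; a median carries no test. The 10 sinusoidal markers have medians of 0.34 for the guide at 6 months and -0.36 for time in Rosa26 livers, and the stellate list lies at 0.47 for the guide at 6 months.

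Markers of other liver cells were read beside these values. All 10 stellate cell markers were higher in HIRA livers at 6 months, with a median of 0.47, and the sum of the list was 277 to 466 CPM in controls and 362 to 781 CPM in HIRA livers. One passed the test, Hand2, a transcription factor of stellate cells, at 0.78 (SE 0.18, adjusted p = 0.0379), and at 0.89 (adjusted p = 0.013) without replicate 5, a call that was likewise lost with only the 6-month libraries fitted. Kupffer cell markers were lower in 10 of 12 genes with a median of -0.16, and their sum ranged from 287 to 2040 CPM in controls and from 183 to 1230 CPM in HIRA livers. The medians of that sum, 342 CPM in controls and 551 CPM in HIRA livers, ran the opposite way. The Kupffer list without replicate 5 of the HIRA group turned to 8 of 12 higher with a median of 0.07, and its sum in HIRA livers was 476 to 1230 CPM. Hepatocyte markers had a median of 0.10 at 6 months and a summed level of 92100 to 134000 CPM in controls and 110000 to 155000 CPM in HIRA livers. Biliary markers had a median of 0.15. Of 3 lymphatic markers, Ccl21a had no count and the other 2 summed to at most 2.24 CPM in any library. Lymphocyte markers had a median of 0.46 with 8 of 8 higher, and platelet and erythroid markers of 0.01. Without that replicate 5 the medians were 0.58 for stellate, 0.68 for lymphocyte, 0.25 for biliary, 0.09 for platelet and erythroid and -0.00 for hepatocyte markers, and the stellate sum in HIRA livers was 528 to 781 CPM. The part of these cell types in the endothelial values was not tested.

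The sum of the 10 endothelial genes was 310 to 412 CPM in Rosa26 livers and 320 to 380 CPM in HIRA livers at 3 weeks. At 6 months it was 197 to 349 CPM in Rosa26 livers and 246 to 393 CPM in HIRA livers, and the group medians were 325, 368, 244 and 364 CPM in the order of 3-week controls, 3-week HIRA, 6-month controls and 6-month HIRA. With replicate 5 left out, the 6-month HIRA sum was 299 to 393 CPM with a median of 365 CPM. The 6-month controls thus had the lowest median, and their range overlapped that of every other group.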

How the data were processed

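Whole mouse livers were profiled by poly(A) RNA-seq with a directional kit. According to the study's methods and the submitters' processing notes, the authors trimmed reads with Trim Galore and aligned them to mm10 (GRCm38) with STAR. The authors deposited unnormalised whole-number read counts for each gene; the methods name HOMER and the notes HTSeq for counting. The authors also deposited FPKM values, for which the notes name Cufflinks, and these were used as an alternative only, since 629498 of their cells are blank. Groups and replicate numbers came from the sample titles, and no batch is given in the sources used here. The labels number replicates without naming animals or litters, so p-values measure the spread between these samples.

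Counts were fitted in edgeR 4.0.16 (R 4.3.3; glmQLFit, glmQLFTest, TMM) over all 20 libraries with a mean per group and no block, after genes with under 10 counts in total were left out. Of 55421 genes, 22867 were tested, with Benjamini-Hochberg adjustment over all of them. Calls used an adjusted p under 0.05 with an absolute log2 change above 1, or the adjusted p alone. CPM are TMM-scaled, and log2 CPM used a prior count of 2. Alternatives were DESeq2 1.42.0, limma-voom 3.58.1, RLE and upper-quartile factors, 2 other filters, only the libraries of a comparison, a replicate block, FPKM with a pseudocount of 1 or 0.1, and each replicate left out. DESeq2 and the block, and the relative and summed levels, without the library that stood apart were added after seeing the data. Scripts were tested on simulated data. Coordinates and exon lengths came from GENCODE M21, promoters from RefSeq, and figures were drawn with matplotlib 3.10.9.

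The 10 genes, the marker lists and the tests were chosen with earlier results of these data known. Named beyond the 10 were Hira, list genes past the threshold or with the 3 largest guide differences of their list at a mean of at least 1 CPM, and the 10 genes most like the mean of the members. Nt5dc2, Ccl21a, Xist, Hamp, Hjv and the genes called by DESeq2 alone were named after their values were seen. The lowest single count of the 10 genes was 63 (Lyve1), and counting error was not computed apart from the spread between libraries.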

Additional observations from a re-analysis of the deposited data

Results flagged for a closer look

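Among the 40 sets of 5 values formed by the 10 genes and the 4 groups, 1 value stood apart from its group by Dixon's criterion, a test that marks about 1 in 20 groups by chance. It was Lyve1 in replicate 3 of the HIRA 3-week group, at a log2 CPM of 2.73, while the other 4 libraries of the group lay between 3.44 and 3.51. In CPM that library was at 6.53 and the others at 10.7 to 11.3, and its raw count was 135. The HIRA difference of Lyve1 at 3 weeks was 0.26 (SE 0.27) with it and 0.378 (adjusted p = 0.785) without it.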

How the results depend on the processing

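No alternative gave a member past the adjusted p together with the fold threshold in any comparison. The number past the adjusted p alone was 0 with the exceptions that follow. With DESeq2 it was 1 for time in Rosa26 livers (Stab1). With DESeq2 without HIRA 6-month replicate 5 it was 2 at 6 months (Stab1 at 0.44 and Oit3 at 0.58) and 1 averaged (Oit3 at 0.39). For the averaged effect with single libraries left out it ran from 0 to 1 by edgeR. That gene was Oit3, without HIRA 6-month replicate 5 or without Rosa26 3-week replicate 4. In the latter fit Oit3 was at 0.42 (adjusted p = 0.0344, edgeR), and 618 of 22738 genes passed. The member median ranged from 0.25 to 0.45 for the guide at 6 months, from 0.07 to 0.16 at 3 weeks and from -0.41 to -0.23 for time in Rosa26 livers, and changed sign only for time in the HIRA arm without HIRA 6-month replicate 5 (0.00402).

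Reversals of sign touched values near 0 and Cdh5. For the guide at 3 weeks, Stab1 became 0.00101 by limma-voom, 0.0128 with upper-quartile factors, and 0.085 and 0.0892 by FPKM plus 1 and plus 0.1; Bmp2 became 0.0188, 0.00759, 0.0512 and 0.0683 under the same settings, and Gata4 0.00458 with upper-quartile factors. The change of the guide effect of Lyve1 became -5.29e-05 by DESeq2, -0.0402 by voom, -0.0118 with upper-quartile factors, -0.0396 and -0.0729 by FPKM. That of Cdh5 became 0.0542 by voom, 0.0596 and 0.0759 by FPKM, and 0.10 by DESeq2 without HIRA 6-month replicate 5. Cdh5 over time in Rosa26 livers became -0.0989 by voom and -0.0518 and -0.0813 by FPKM, and in the HIRA arm -0.0447 by voom and -0.00542 by FPKM plus 0.1. The cause was not tested.

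Fitted with a replicate block, the 6-month minus 3-week guide effect was -0.0308 for Lyve1 and 0.00328 for Cdh5, and without HIRA 6-month replicate 5 it was 0.171 for Cdh5, with Kdr over time in the HIRA arm at 0.013. Deviations of same-numbered libraries correlated at -0.31 to 0.34, with 14 of 30 pairs over 0.1. Their mean was 0.09, against -0.02 for differently numbered libraries, so this check does not settle whether the numbers pair the samples. The block moved the genes past the adjusted p from 74 to 151 for time in Rosa26 livers and from 15 to 37 in the HIRA arm. For the guide at 6 months it moved them from 299 to 324, and it called no member.

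With single libraries left out, the 3-week guide effect ranged from -0.0457 to 0.0767 for Stab1, -0.0947 to 0.0421 for Gata4, -0.0111 to 0.112 for Pecam1, -0.00671 to 0.132 for Clec4g and -0.109 to 0.174 for Bmp2. The 6-month effect of Cdh5 ranged from -0.0621 to 0.608, its change with time from -0.264 to 0.408, and that of Lyve1 from -0.219 to 0.222. Time in Rosa26 livers ranged from -0.372 to 0.213 for Cdh5 and -0.285 to 0.00847 for Pecam1. Time in the HIRA arm ranged from -0.205 to 0.182 for Cdh5, -0.0444 to 0.142 for Bmp2, -0.152 to 0.00297 for Stab1 and -0.161 to 0.00507 for Kdr. In all, 66 of the member values under alternatives reversed.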
